A study of Mus musculus with 72 samples.

Results

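The experiment described here is the response to a cue without shock in the dorsal hippocampus of male mice labelled C57BL/6J. It rests on the gene count columns for dorsal hippocampus (DH), label 6J and cue (6 libraries) and on those for the same region and label taken from the home cage (6 libraries), together 12 of the 72 libraries of the series. Cue mice received the cue alone and the tissue was taken 30 min later, whereas home cage mice were taken directly from their cage. The whole study compared the substrains C57BL/6J and C57BL/6NJ, labelled 6J and 6NJ, in dorsal and ventral hippocampus (VH), and also holds a shock-cue group that was fear conditioned. Beside the 2 groups named, 5 further groups of 6 libraries each are compared. These are DH labelled 6J after shock and cue, and DH labelled 6NJ after the cue and in the home cage. The others are VH labelled 6J after the cue and in the home cage. No other group is compared, but all 36 DH libraries entered the main fits in DH, among them those labelled 6NJ after shock and cue. All 72 libraries entered the fit of the region difference. All were male mice of these inbred strains, the labels name no transgene and no drug, and ages were not given in the sources used here. No group was handled without a cue, so cue and handling cannot be told apart. Whether each library is a mouse of its own is not stated in the labels, and every p-value therefore measures only a spread between libraries, which may be technical. In the main fits that spread is shared by all DH groups and not taken from the 12 libraries alone. Code number and condition cannot be told apart either, because the cue libraries carry the numbers 32 and 34 and the home cage libraries 35 and 36.

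The cue libraries held 34015037 to 37906707 gene counts and the home cage libraries 32012867 to 37272920. Nnt, the mitochondrial transhydrogenase gene that C57BL/6J is known to carry in a deleted form, was at 36.2 to 44.2 CPM (the count of a gene per 1000000 counts, on totals scaled as in edgeR) in the 18 DH libraries labelled 6J and at 18.3 to 22.9 CPM in the 18 labelled 6NJ. That order goes against the label, and the mice are therefore called by their label throughout. Hippocampal markers fitted the tissue: summed over their lists, dentate granule cell markers were at 486 to 634 CPM in cue and 402 to 687 CPM in home cage libraries, and CA1 pyramidal cell markers at 711 to 938 CPM and 731 to 869 CPM. Libraries stood apart in other ways. Lcn2, an acute-phase protein gene, exceeded 2 CPM in 4 cue libraries (32A, 32B, 34A and 34C, at 7.93 to 20.5 CPM) and 2 home cage libraries (35A and 35B, at 5.40 and 13.3 CPM), and lay at 0.108 and 0.114 CPM in the other cue libraries and 0.0312 to 0.18 CPM in the other home cage libraries. It missed the threshold (log2 fold change 1.64, adjusted p = 0.249) except without home cage library 35B (adjusted p = 0.0293). Choroid plexus markers, a list of 10 genes led by the transthyretin gene Ttr, summed to 59.7 to 9090.4 CPM in cue and 58.7 to 3585 CPM in home cage libraries, with library 32B highest; 0 of the 10 passed the test. Blood markers summed to 114 to 445 CPM in cue and 59.2 to 171 CPM in home cage libraries, with 0 of 5 past the test. The main gene groups below are therefore also given for the 6 libraries over 2 CPM of Lcn2 (4 cue, 2 home cage) and for the 6 under it (2 cue, 4 home cage).

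Immediate early genes are transcribed within minutes of neuronal firing and need no new protein synthesis. Calcium entry and MAP kinase signalling act on the transcription factors CREB and SRF, which are already bound near these genes and turn them on. Some of the products are transcription factors themselves, others work at synapses, and still others shut the signal off again. In the hippocampus they are widely used to mark neurons that were active when an animal met a new place or a learned signal.

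The regions just upstream of immediate early genes are known to hold sites for these factors. The 250 bases before an annotated start are printed for 4 transcription factor genes with large increases, from RefSeq on build GRCm38, 5′ to 3′ on the strand of the gene. Capitals mark the CRE core TGACG, searched on both strands as TGACG or CGTCA, the letters that CREB is known to bind, and the CArG box, the site known for SRF (CC and GG around 6 bases that are A or T).
Egr2 (chr10:67537619-67537868, strand +): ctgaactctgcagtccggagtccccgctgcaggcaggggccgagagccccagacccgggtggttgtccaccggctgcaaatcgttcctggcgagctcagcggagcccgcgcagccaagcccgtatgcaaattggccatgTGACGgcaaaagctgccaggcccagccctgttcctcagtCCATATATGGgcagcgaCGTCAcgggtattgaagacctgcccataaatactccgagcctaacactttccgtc
Fos (chr12:85473640-85473889, strand +): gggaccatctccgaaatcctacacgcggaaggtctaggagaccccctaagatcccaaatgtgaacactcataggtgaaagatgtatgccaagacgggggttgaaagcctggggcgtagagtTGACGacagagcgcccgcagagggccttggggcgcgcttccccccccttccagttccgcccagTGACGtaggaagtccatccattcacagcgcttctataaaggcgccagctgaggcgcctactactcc
Junb (chr8:84978749-84978998, strand -): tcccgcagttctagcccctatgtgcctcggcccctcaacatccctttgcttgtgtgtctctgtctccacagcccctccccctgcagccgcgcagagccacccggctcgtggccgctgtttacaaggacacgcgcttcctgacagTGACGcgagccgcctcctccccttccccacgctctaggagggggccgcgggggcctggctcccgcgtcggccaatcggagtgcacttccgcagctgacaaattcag
Nr4a1 (chr15:101266596-101266845, strand +): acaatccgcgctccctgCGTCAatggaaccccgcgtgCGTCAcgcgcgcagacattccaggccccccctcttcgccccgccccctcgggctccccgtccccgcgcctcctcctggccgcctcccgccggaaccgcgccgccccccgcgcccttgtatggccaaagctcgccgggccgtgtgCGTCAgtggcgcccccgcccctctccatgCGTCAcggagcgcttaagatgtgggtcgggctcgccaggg
The Egr2 window, 1 of 5 listed for that gene, holds a CArG box between 2 CRE cores, and the Nr4a1 window holds 4 CRE cores. In the order of listing, Egr2 window 1 holds neither site and window 2 a CArG box without a CRE core. Windows 4 and 5 overlap the printed one and hold the same sites. At least 1 CRE core stood in a window of 14 of the 16 immediate early transcription factor genes that rose and have an entry (87.5%) and of 8 of 11 immediate early effector genes (72.7%). The share was 39.2% of the 530 genes with an entry among all that rose, 26.3% of 270 that fell and 28.3% of 12850 genes tested. The full palindrome TGACGTCA, which contains the core on both strands, stood in 1 of 16 transcription factor genes, 3 of 11 effector genes and 2 of 5 MAP kinase feedback genes that rose, against 4.91% of all that rose and 2.84% of genes tested. A CArG box stood in 1 of 16 transcription factor genes, the printed Egr2, in 0 of 11 effector genes and in 1 of 5 feedback genes, against 1.42% of genes tested. The AP-1 letters TGANTCA, bound by Fos and Jun proteins, stood in 1 of 16 of the transcription factor genes, against 5.62% of genes tested. A match is a match of letters only, and genes with several listed starts have more windows in which to find one. Sites outside these 250 bases were not searched, so a gene without a match, Fos for the CArG box among them, may hold one farther away.

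Immediate early transcription factors were among the largest increases. In edgeR's quasi-likelihood test with Benjamini-Hochberg adjustment, 1157 of 19647 genes passed at an adjusted p of 0.05 (5.89%), of which 748 were higher after the cue (3.81%) and 409 lower (2.08%). Of the 26 immediate early transcription factor genes tested, 21 rose and 0 fell, with a median log2 fold change of 0.575, against -0.00356 over all genes tested. In 15 of the 26, every cue library lay above every home cage library, which was so for 1.77% of all genes tested. The reverse, every cue library below every home cage library, was so for 0.942%. Fosl1, at no more than 0.117 CPM in cue and 0.142 CPM in home cage libraries, was too low to be tested.

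**Figure D1:**
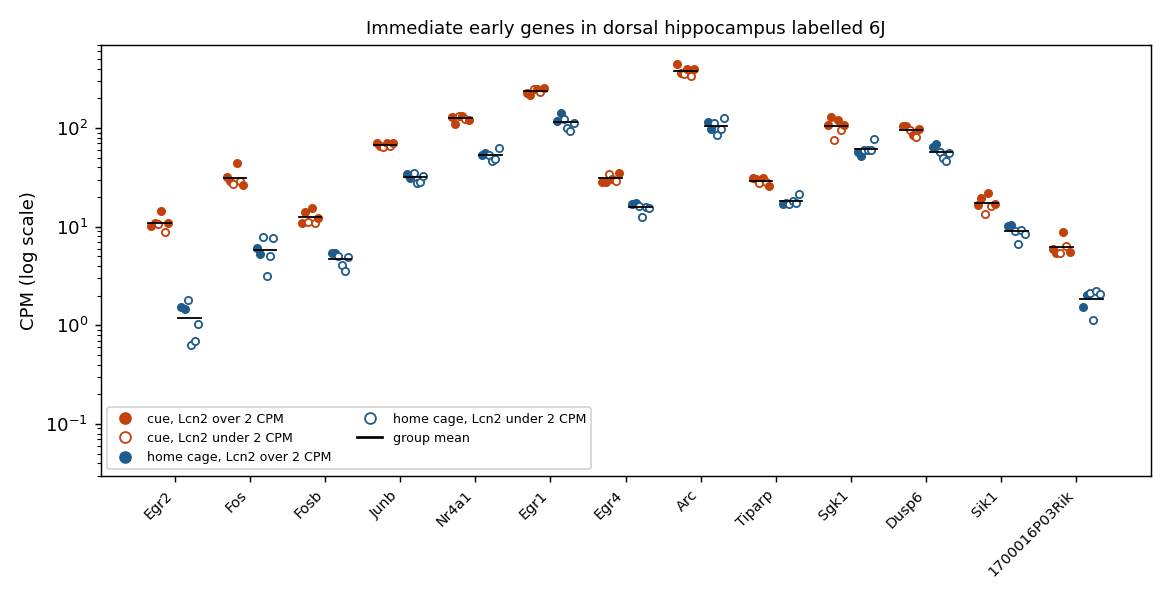
CPM, on a log scale, of 13 immediate early and feedback genes in each of the 6 cue (left) and 6 home cage (right) libraries of dorsal hippocampus labelled 6J, filled where Lcn2 exceeded 2 CPM and open where it did not, with a line at the group mean. All 6 cue points lie above all 6 home cage points for every gene shown except Sgk1, where the lowest cue library, at 76.4 CPM, was just under the highest home cage library at 76.5 CPM.

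Egr2, a zinc finger transcription factor (ENSMUSG00000037868, chromosome 10, 67535475 to 67542188; GRCm38), was counted at 8.88 to 14.3 CPM (median 10.7) in cue libraries and 0.627 to 1.83 CPM (median 1.24) in home cage libraries. The groups were far apart, and the difference was 9.08-fold (log2 fold change 3.18 ± 0.22 SE, adjusted p = 7.38e-12). Fos (ENSMUSG00000021250, chromosome 12, 85473890 to 85477273), the partner of Jun proteins in the AP-1 factor, stood at 26.6 to 43.7 CPM (median 29.2) in cue libraries and 3.16 to 7.77 CPM (median 5.67) in home cage libraries. Cue library 34A was the highest, and the lowest cue library was still more than 3 times the highest home cage library (log2 fold change 2.43 ± 0.24 SE, adjusted p = 5.97e-08). Fosb, its close relative, was at 10.8 to 15.6 CPM (median 11.7) in cue libraries and 3.57 to 5.43 CPM (median 4.95) in home cage libraries, again with no overlap (log2 fold change 1.39 ± 0.13 SE, adjusted p = 8.12e-09). Junb, an AP-1 partner of Fos, had 64 to 70.5 CPM (median 67.9) in cue libraries and 27.9 to 34.7 CPM (median 32.1) in home cage libraries, a narrow range in both groups (log2 fold change 1.10 ± 0.094 SE, adjusted p = 8.36e-10). Of the orphan nuclear receptors, Nr4a1 (ENSMUSG00000023034, chromosome 15, 101254269 to 101274795) was at 111 to 134 CPM (median 127) in cue libraries and 46.6 to 62 CPM (median 53.3) in home cage libraries, and the groups did not overlap (log2 fold change 1.23 ± 0.093 SE, adjusted p = 4.22e-11). Its relatives rose less, Nr4a2 by 0.57 ± 0.087 and Nr4a3 by 0.45 ± 0.077 on the log2 scale.

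The other Egr factors also rose. Egr1, the most used marker of recent neuronal activity beside Fos, was at 214 to 257 CPM (median 239.5) in cue libraries and 92.5 to 143 CPM (median 115) in home cage libraries (log2 fold change 1.05 ± 0.11 SE, adjusted p = 1.53e-07). Egr4 was at 28.1 to 35 CPM (median 29.8) in cue libraries and 12.6 to 17.2 CPM (median 16) in home cage libraries (log2 fold change 0.97 ± 0.10 SE, adjusted p = 7.61e-08), and Egr3 rose by 0.41 ± 0.068. None of these 3 overlapped between the groups. Nab2, a corepressor that binds Egr proteins, rose by 0.30 ± 0.062 (adjusted p = 0.0028), with home cage library 35A among the cue values. Smaller members of the list rose as well: Ier2 by 0.82 ± 0.14, Atf3 by 0.81 ± 0.17, Csrnp1 by 0.68 ± 0.082, Nfil3 by 0.59 ± 0.093, Klf2 by 0.58 ± 0.10, Fosl2 by 0.56 ± 0.10 and Klf4 by 0.49 ± 0.10. Maff, a small Maf factor, rose by 0.99 ± 0.22 at values no higher than 1.88 CPM. Klf6 (0.20 ± 0.058), Klf10 (0.33 ± 0.093) and Bhlhe40 (0.31 ± 0.079) passed with all libraries, but each lost its call on leaving out single libraries (32A, 34A, 35A, 36C for Klf6, 32B, 32C, 34C, 35C, 36B for Klf10 and 36B for Bhlhe40), with adjusted p up to 0.117, 0.0841 and 0.0504.

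Not every immediate early factor passed. Npas4, a factor of excited neurons that controls inhibitory synapses, was at 18.4 to 29.4 CPM (median 21.7) in cue libraries and 12.6 to 24 CPM (median 14.2) in home cage libraries, and the ranges overlapped (log2 fold change 0.47 ± 0.15 SE, adjusted p = 0.0517). It passed on leaving out any 1 of 32C, 34B, 35C and 36C, with adjusted p down to 0.00836, and was at 0.90 in the libraries over 2 CPM of Lcn2 (adjusted p = 0.0214) and 0.099 in those under it (adjusted p = 0.952). Jun was at 58.4 to 76 CPM (median 73.1) in cue libraries and 57.9 to 83.3 CPM (median 67.5) in home cage libraries, with overlapping groups (log2 fold change 0.040 ± 0.091 SE, adjusted p = 0.846). The transcription factor list as a whole held in both kinds of library: its median was 0.642 over 2 CPM of Lcn2, where 14 rose, and 0.511 under it, where 11 rose. In the fit over 2 CPM, 1.58% of all genes passed (1.19% higher), and in the fit under it 0.152% (0.147% higher and 0.00489% lower). Egr2 was at 2.94 and 3.21, Fos at 2.54 and 2.24, and Nr4a1 at 1.18 and 1.28, each past the threshold in both.

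Effectors of the immediate early response were the next group. Of 23 genes tested, 14 rose and 0 fell, against 3.81% and 2.08% of all genes, with a median log2 fold change of 0.44. In 11 of the 23 every cue library lay above every home cage library, against 1.77% of all genes. Arc (ENSMUSG00000022602, chromosome 15, 74669083 to 74672570), whose protein moves glutamate receptors out of the synapse and can form virus-like capsids, had the smallest p of all genes. It was counted at 336 to 443 CPM (median 379) in cue libraries and 84.5 to 126 CPM (median 106) in home cage libraries. The groups were separated by a wide gap, and the difference was 3.6-fold (log2 fold change 1.85 ± 0.12 SE, adjusted p = 6.12e-12). Tiparp, a member of the PARP family of ADP-ribosyltransferases, was at 25.9 to 30.9 CPM (median 29.7) in cue libraries and 16.9 to 21.3 CPM (median 17.4) in home cage libraries (log2 fold change 0.69 ± 0.059 SE, adjusted p = 2.78e-10). Arl5b, a small GTPase of the Golgi, was at 40.4 to 45 CPM (median 44) in cue libraries and 26 to 32.3 CPM (median 30.3) in home cage libraries (log2 fold change 0.55 ± 0.056 SE, adjusted p = 2.58e-08). Neither overlapped between the groups. Sgk1, a kinase induced by both activity and glucocorticoids, was at 76.4 to 129 CPM (median 107) in cue libraries and 52.1 to 76.5 CPM (median 59.4) in home cage libraries (log2 fold change 0.80 ± 0.10 SE, adjusted p = 6.96e-06), with the lowest cue library a fraction below the highest home cage library. Sgk1 was at 1.10 in libraries over 2 CPM of Lcn2 and 0.42 in those under it (adjusted p = 2.08e-05 and 0.398).

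Further effectors rose by smaller steps. The pseudokinase gene Trib1 rose by 0.67 ± 0.091, the small GTPase gene Arl4d by 0.70 ± 0.099, the GTP-binding protein gene Gem by 0.69 ± 0.12 and the growth arrest genes Btg2 and Gadd45b by 0.66 ± 0.13 and 0.50 ± 0.081. The groups did not overlap for any of these 5. Coq10b, which acts in coenzyme Q biology, rose by 0.44 ± 0.081 and Fbxo33, a ubiquitin ligase subunit, by 0.20 ± 0.039. Plk2, a polo-like kinase that acts at synapses, was at 206 to 243 CPM (median 228) in cue libraries and 176 to 241 CPM (median 208) in home cage libraries and did not pass (log2 fold change 0.12 ± 0.070 SE, adjusted p = 0.33). Its relative Plk3 passed narrowly (log2 fold change 0.26 ± 0.080 SE, adjusted p = 0.0468) and lost the call on leaving out any 1 of 32B, 32C, 34A, 34B, 34C, 35C, 36A, 36B, 36C (adjusted p up to 0.125). Pim1, a serine kinase gene, was the 1 effector with every cue library below every home cage library, by a narrow margin and without passing (-0.39 ± 0.14, adjusted p = 0.089). Such an order held for 0.942% of all genes tested. The effector list had a median of 0.524 in libraries over 2 CPM of Lcn2, with 12 higher, and 0.383 in those under it, with 5 higher. Of all genes, 1.19% and 0.147% were higher in these fits.

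Of the 6 Homer1 transcripts tested, Homer1-204 and Homer1-205 rose, and the other 4, short and long, did not pass the test. The gene (ENSMUSG00000007617, chromosome 13, 93299635 to 93405129) encodes a scaffold that links metabotropic glutamate receptors to other proteins of the synapse, and activity is known to make short forms that lack the end by which the long forms pair. At the gene level it was at 147 to 187 CPM (median 173) in cue libraries and 101 to 137 CPM (median 111) in home cage libraries (log2 fold change 0.55 ± 0.083 SE, adjusted p = 4.39e-05). In the estimated transcript counts, where 613 of 56523 transcripts passed (1.08%; 421 higher, 0.745%, and 192 lower, 0.34%), the short transcript Homer1-205 (6 exons, 203 codons) was at 9.84 to 11.3 CPM (median 10.6) in cue libraries and 0 to 0.982 CPM (median 0.423) in home cage libraries. It was close to absent in the home cage, and the groups did not overlap (log2 fold change 4.54 ± 0.39 SE, adjusted p = 5.14e-09). Homer1-204, with 5 exons and 186 codons and a long last exon, was at 52 to 72.7 CPM (median 64.7) in cue libraries and 24.8 to 39.3 CPM (median 28.9) in home cage libraries (log2 fold change 1.09 ± 0.15 SE, adjusted p = 6.45e-05). The long transcripts Homer1-202 and Homer1-203, with 370 and 366 codons, were at 0.065 ± 0.068 and 0.079 ± 0.17 on the log2 scale (adjusted p = 0.833 and 0.942). Homer1-202 ranged over 48.7 to 59.2 CPM (median 54.6) in cue libraries and 48.1 to 58.1 CPM (median 52.2) in home cage libraries, so that its groups overlapped. Homer1-206, which ends at the same base as Homer1-205 but has 233 codons, was at 0.32 ± 0.20 (adjusted p = 0.601), and Homer1-207, of 6 exons and 193 codons, at 0.026 ± 0.29 (adjusted p = 0.995). In a fit of the 12 libraries alone, where 75 transcripts passed, Homer1-204 and Homer1-205 passed too (adjusted p = 0.00434 and 0.0108). Reads of 75 bases rarely tell overlapping transcripts apart on their own, and these values are kallisto's division of them.

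**Figure D2:**
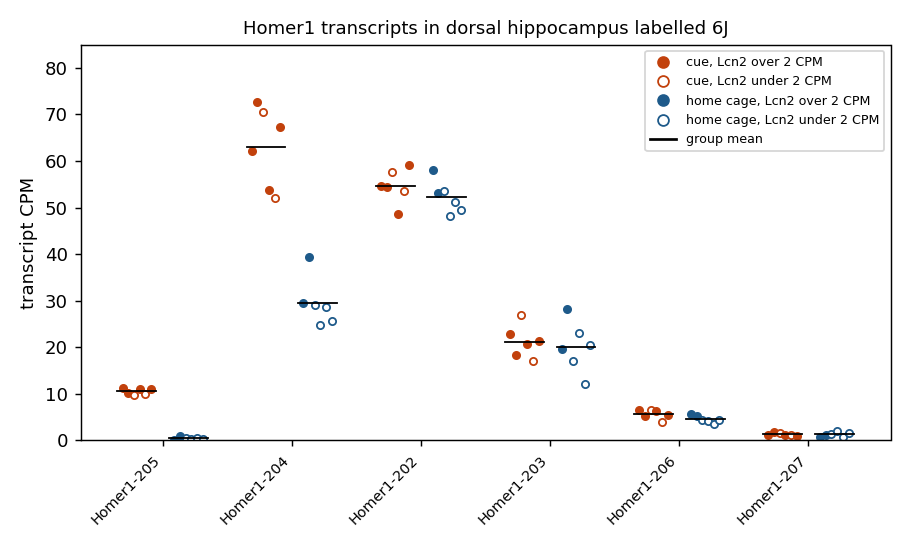
CPM of the estimated counts of the 6 Homer1 transcripts tested, in each of the 6 cue (left) and 6 home cage (right) libraries, filled where Lcn2 exceeded 2 CPM, with a line at the group mean. Homer1-205 and Homer1-204 are higher in all 6 cue libraries than in any home cage library, at 52 to 72.7 CPM (median 64.7) against 24.8 to 39.3 CPM (median 28.9) for Homer1-204, while the other 4 overlap.

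Among other immediate early transcripts, Nr4a1-201 was at 97.8 to 108 CPM (median 101) in cue libraries and 28.1 to 37.9 CPM (median 32.5) in home cage libraries and had the smallest p of all transcripts (log2 fold change 1.63 ± 0.10 SE, adjusted p = 2.79e-12). Nr4a1-202, which starts farther upstream and encodes as many codons (601), was at 2.52 to 22.1 CPM (median 10.9) in cue libraries and 12.2 to 16.8 CPM (median 15.5) in home cage libraries and did not pass (log2 fold change -0.40 ± 0.27 SE, adjusted p = 0.651). Fosb-201, of 338 codons, rose (log2 fold change 1.55 ± 0.33 SE, adjusted p = 0.0131) but lost the call in the fit of the 12 libraries alone (adjusted p = 0.0969), and the other 4 Fosb transcripts tested did not pass. None of the 8 Bdnf transcripts tested passed, nor any of the Crem transcripts; Bdnf-210 had the largest increase among the Bdnf transcripts at 1.61 to 2.91 CPM (median 2.5) in cue libraries and 0 to 1.85 CPM (median 0.741) in home cage libraries (log2 fold change 1.78 ± 0.57 SE, adjusted p = 0.141), and passed in DESeq2 (adjusted p = 0.0189). Both listed Arc transcripts rose, Arc-201 by 1.79 ± 0.13 and Arc-202 by 1.93 ± 0.14; they differ in length by 1 base (3055 and 3054), so their split is uncertain.

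Genes that feed back on MAP kinase signalling rose in the same libraries. Of 13 tested, 7 rose and 0 fell, against 3.81% and 2.08% of all genes (median log2 fold change 0.283). Dusp6, a phosphatase that switches off ERK, was at 80.6 to 105 CPM (median 96.7) in cue libraries and 45.9 to 68.4 CPM (median 56) in home cage libraries (log2 fold change 0.74 ± 0.085 SE, adjusted p = 4.91e-07). Dusp5, its nuclear counterpart, was at 30.6 to 41.5 CPM (median 37.2) in cue libraries and 15.4 to 27.1 CPM (median 19.3) in home cage libraries (log2 fold change 0.87 ± 0.12 SE, adjusted p = 1.31e-05). Dusp1, which acts on several MAP kinases, was at 15.1 to 28.4 CPM (median 15.8) in cue libraries and 8.49 to 11.2 CPM (median 10.2) in home cage libraries (log2 fold change 0.88 ± 0.18 SE, adjusted p = 0.00318), with cue library 34A well above the rest. None of these 3 overlapped between the groups. Errfi1, an inhibitor of EGF receptor kinases, rose by 0.49 ± 0.058, and Spry4 and Spred1, inhibitors of the Ras pathway, by 0.57 ± 0.086 and 0.28 ± 0.047. Dusp4 (0.36 ± 0.10) lost its call on leaving out any 1 of 32A, 32B, 32C, 34C, 35A, 35C, 36B (adjusted p up to 0.0953). Dusp2, at no more than 1.02 CPM, lay lower in all 6 cue libraries, as 0.942% of all genes did, but did not pass (-0.61 ± 0.21, adjusted p = 0.0783). The list median was 0.233 in libraries over 2 CPM of Lcn2 and 0.264 in those under it, with 3 and 3 members higher, against 1.19% and 0.147% of all genes.

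Of 17 genes of CREB and cAMP signalling, 3 rose, against 3.81% of all genes, and the list median was 0.000897. Sik1, a kinase that holds the CREB coactivators in the cytoplasm, was at 13.5 to 21.8 CPM (median 16.8) in cue libraries and 6.64 to 10.4 CPM (median 9.12) in home cage libraries, with no overlap (log2 fold change 0.96 ± 0.13 SE, adjusted p = 1.21e-05). Crem, which encodes CREB-related activators and repressors, rose by 0.22 ± 0.058 and Creb1 by 0.16 ± 0.044. Without cue library 32A the list had 1 call, because Crem (adjusted p = 0.0532 at most over single libraries left out) and Creb1 were lost; Creb1 was also lost without 32B or 36B (adjusted p up to 0.111). Srf, the serum response factor gene, rose by 0.25 ± 0.048 (adjusted p = 0.00134), and the other 9 genes of its list did not pass; 1 of them did without home cage library 35B.

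The host transcript of a pair of neuronal microRNAs rose with these genes. 1700016P03Rik (ENSMUSG00000085609, chromosome 11, 75172560 to 75177633), a long non-coding RNA that spans the hairpins of miR-212 and miR-132, was at 5.36 to 8.81 CPM (median 5.73) in cue libraries and 1.14 to 2.25 CPM (median 2.05) in home cage libraries. The groups did not overlap, and the difference was 3.35-fold (log2 fold change 1.75 ± 0.16 SE, adjusted p = 3.75e-09). The mature sequences from RefSeq (GRCm38) are shown because both share the seed, bases 2 to 8, which is in capitals and reads AACAGUC.
mmu-miR-132-3p (chr11:75173723-75173744, strand +): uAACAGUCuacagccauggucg
mmu-miR-212-3p (chr11:75173443-75173464, strand +): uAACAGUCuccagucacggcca
These microRNAs are known as CREB targets in neurons. Their mature forms were not measured, since the libraries hold messenger RNA.

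Genes outside these groups filled the rest of the 20 with the smallest p. Ddit4, an inhibitor of mTORC1 that stress and glucocorticoids induce, was at 56.3 to 64.6 CPM (median 60.0) in cue libraries and 37.4 to 48.1 CPM (median 43.2) in home cage libraries (log2 fold change 0.49 ± 0.053 SE, adjusted p = 7.61e-08). Per1, a clock gene that also responds at once to CREB and to glucocorticoids, was at 82.1 to 97.8 CPM (median 91) in cue libraries and 56.8 to 67 CPM (median 60.3) in home cage libraries (log2 fold change 0.56 ± 0.067 SE, adjusted p = 6.65e-07). Mcl1, a survival factor of the Bcl2 family, was at 75.1 to 91.7 CPM (median 83.3) in cue libraries and 62 to 68.9 CPM (median 65) in home cage libraries (log2 fold change 0.36 ± 0.042 SE, adjusted p = 5.94e-07). The groups did not overlap for any of them. Dnajb5, a co-chaperone, rose by 0.46 ± 0.056, the RNA-binding protein gene Rbm15 by 0.46 ± 0.059, and Tob2, which acts in mRNA turnover, by 0.51 ± 0.067. Nfkbia, the inhibitor of NF-κB, rose by 0.60 ± 0.079 (adjusted p = 4.55e-06). Among 17 clock genes, Per1, Per2 (0.44 ± 0.084) and Cry1 (0.30 ± 0.070) rose and 0 fell, against 3.81% and 2.08% of all genes, and the list median was 0.0913.

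Genes known to follow hours after activity mostly did not pass the test at 30 min. Of 24 such genes tested, 4 rose, against 3.81% of all genes, 0 fell and 22 lay above 0 (median log2 fold change 0.0955): Cdkn1a, a cell cycle inhibitor (0.77 ± 0.13), the orphan receptor gene Gpr3 (0.51 ± 0.096), Per2 and Nab2. Bdnf, the neurotrophin, was at 43.2 to 54.2 CPM (median 50.9) in cue libraries and 35.7 to 51.3 CPM (median 47.1) in home cage libraries and did not pass (log2 fold change 0.14 ± 0.084 SE, adjusted p = 0.36). Nptx2, a pentraxin that clusters AMPA receptors, was at 0.22 ± 0.095 (adjusted p = 0.163). Genes of receptors and channels mostly did not pass. Of 12 GABA-A receptor genes, 20 potassium channel genes and 15 activin and TGF beta genes, 0 passed, and their list medians were 0.0115, -0.00984 and 0.0654. At the same threshold 5.89% of all genes passed (2.08% lower), and lists of 12 to 20 genes are too short to tell 0 calls from that share. Of 22 glutamate receptor genes, 0 rose and 2 fell, Grin2d (-0.32 ± 0.089) and Grik5 (-0.17 ± 0.051), and 0 of the 22 passed on leaving out 32A, 32B, 34A or 35A and 1 on leaving out 34B, 35C, 36B or 36C (adjusted p up to 0.0785 for Grin2d and 0.107 for Grik5).

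Clk1, Rsrp1, Hsph1 and Rbm3 each had transcripts that changed and others that did not pass the test; the difference between transcripts was not tested, here or for Homer1. Clk1-201 (483 codons), the coding transcript of a kinase that phosphorylates splicing factors, was at 24.3 to 45 CPM (median 37.7) in cue libraries and 5.05 to 13.9 CPM (median 10.04) in home cage libraries (log2 fold change 1.87 ± 0.20 SE, adjusted p = 8.93e-07). Clk1-210, which skips 1 exon and is annotated for nonsense-mediated decay, was at 28.6 to 45.7 CPM (median 32.6) in cue libraries and 32.2 to 44.6 CPM (median 40.2) in home cage libraries and missed the threshold (adjusted p = 0.838). The intron-retaining Clk1-204 rose by 0.44 ± 0.094 (adjusted p = 0.0116), but not in the fit of the 12 libraries alone (adjusted p = 0.105). Rsrp1-201, a coding transcript of an arginine- and serine-rich protein gene, was at 25.6 to 44.8 CPM (median 31.5) in cue libraries and 3.16 to 10.4 CPM (median 9.51) in home cage libraries (log2 fold change 1.98 ± 0.23 SE, adjusted p = 5.18e-06). The non-coding Rsrp1-203 and Rsrp1-205 were lower, with log2 fold changes of -0.99 ± 0.22 and -0.998 ± 0.23 (adjusted p = 0.016 and 0.0209), and lost the call with the 12 libraries alone (adjusted p = 0.161 and 0.0994). Hsph1-204, an intron-retaining transcript of a heat shock protein gene, was at 9.92 to 17.9 CPM (median 14.2) in cue libraries and 3.81 to 6.24 CPM (median 4.61) in home cage libraries (log2 fold change 1.55 ± 0.19 SE, adjusted p = 6.61e-06), and the coding Hsph1-201 was at 0.29 ± 0.089 (adjusted p = 0.126). Rbm3-211, a processed transcript of 2 exons at the end of the gene, was at 5.86 to 10.1 CPM (median 8.25) in cue libraries and 1.46 to 3.28 CPM (median 2.53) in home cage libraries (log2 fold change 1.68 ± 0.18 SE, adjusted p = 5.83e-07). Clk1-201, Rsrp1-201, Hsph1-204 and Rbm3-211 were among the 15 transcripts with the smallest p; the others beside them were chosen after their values were seen. Over annotation classes, 247 coding transcripts rose and 111 fell of 32663 tested, and 116 intron-retaining transcripts rose and 53 fell of 12499. Over all transcripts tested, 0.745% rose and 0.34% fell. The coding counts lay at about these shares and the intron-retaining counts a little above them, and no difference between classes was tested.

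Cirbp and Rbm3 encode RNA-binding proteins that are known to be induced by cooling. Cirbp (ENSMUSG00000045193, chromosome 10, 80165985 to 80172786) was counted at 28.8 to 57 CPM (median 39.4) in cue libraries and 57.6 to 71.2 CPM (median 65.7) in home cage libraries. All 6 cue libraries lay below all 6 home cage libraries, which was so for 0.942% of all genes tested (log2 fold change of Cirbp -0.67 ± 0.11 SE, adjusted p = 0.000146). The difference was -0.74 in the libraries over 2 CPM of Lcn2 (adjusted p = 0.000441) and -0.39 in those under it (adjusted p = 0.286). The whole Rbm3 gene was counted at 35.1 to 43.9 CPM (median 37.6) in cue libraries and 31.5 to 50.4 CPM (median 38) in home cage libraries. The groups overlapped (log2 fold change -0.058 ± 0.095 SE, adjusted p = 0.777), and the sign turned with some of the libraries left out. Of the Rbm3 transcripts, the coding Rbm3-202 and Rbm3-203 lay lower after the cue without passing. Their log2 fold changes were -0.59 ± 0.20 and -0.42 ± 0.17 SE (adjusted p = 0.181 and 0.296). Rbm3-211 and Rbm3-208 rose by 1.68 ± 0.18 and 0.67 ± 0.14 (adjusted p = 5.83e-07 and 0.00832). Rbm3-208 lost the call in the fit of the 12 libraries alone (adjusted p = 0.134). The gene count therefore does not show that each transcript stayed level.

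**Figure D3:**
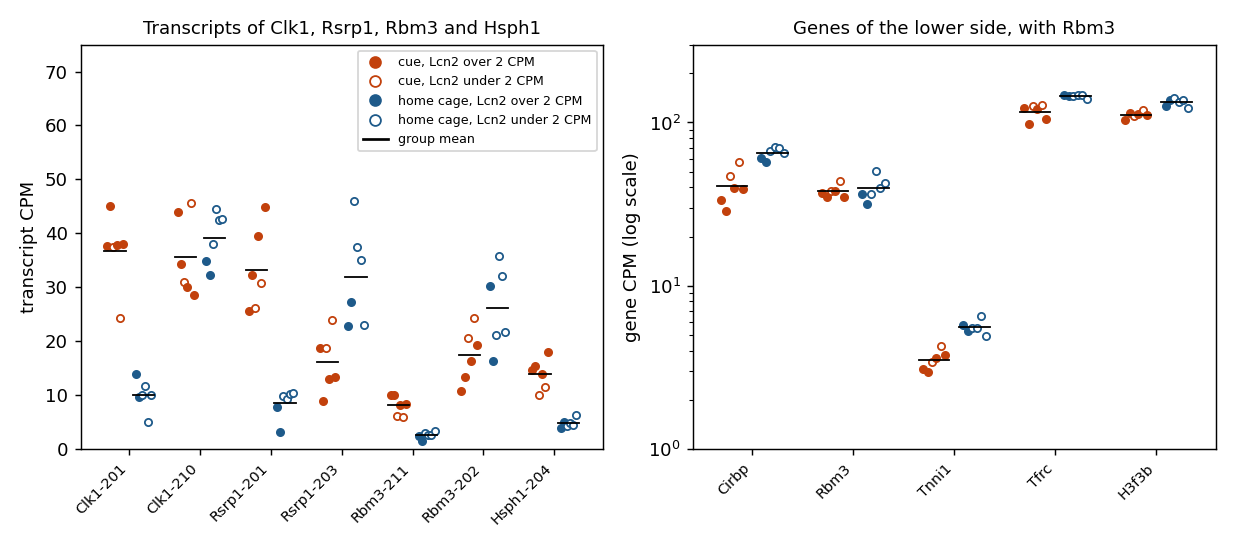
Left, CPM of the estimated counts of 7 transcripts of Clk1, Rsrp1, Rbm3 and Hsph1; right, gene CPM on a log scale of Cirbp, Rbm3, Tnni1, Tfrc and H3f3b; cue libraries stand left of home cage libraries, filled points have Lcn2 over 2 CPM and lines are group means. Clk1-201, Rsrp1-201, Rbm3-211 and Hsph1-204 are higher and Cirbp, Tnni1, Tfrc and H3f3b lower in all 6 cue libraries, whereas Clk1-210 and the Rbm3 gene overlap.

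The largest decreases were smaller than the largest increases, and many were of non-coding genes. Tnni1, the slow troponin I gene, had the smallest p among those that fell, at 2.96 to 4.28 CPM (median 3.51) in cue libraries and 4.93 to 6.51 CPM (median 5.5) in home cage libraries (log2 fold change -0.67 ± 0.10 SE, adjusted p = 3.73e-05). Tfrc, the transferrin receptor, was at 98.2 to 128 CPM (median 121) in cue libraries and 139 to 147 CPM (median 146) in home cage libraries (log2 fold change -0.32 ± 0.057 SE, adjusted p = 0.000464), and H3f3b, a gene of the histone variant H3.3, at 103 to 119 CPM (median 112) in cue libraries and 123 to 142 CPM (median 135) in home cage libraries (log2 fold change -0.26 ± 0.045 SE, adjusted p = 0.000406). The groups did not overlap for these 3, and of all genes tested 0.942% had every cue library below every home cage library. The long non-coding or unnamed genes 3110070M22Rik (-1.01 ± 0.16), 0610040B10Rik (-0.79 ± 0.14), Gm10814 (-0.96 ± 0.17), 2900052L18Rik (-0.74 ± 0.14), C230035I16Rik (-0.97 ± 0.18) and Gm37310 (-0.97 ± 0.18) and 9030407P20Rik (-0.50 ± 0.094) were lower too, all but the last at no more than 6 CPM. Agrp, which encodes a feeding peptide of the hypothalamus, fell by 1.03 on the log2 scale at no more than 1.31 CPM. Coro1b, an actin regulator, and Mpg, a DNA repair glycosylase, changed by -0.18 ± 0.034 and -0.31 ± 0.061, and Lrrc29 by -0.83 ± 0.15. Of 15377 protein-coding genes tested, 4.4% rose and 1.93% fell, whereas of the 4270 other genes 1.66% rose and 2.62% fell. Antisense genes rose in 5 and fell in 24 of 651, and bidirectional promoter RNAs rose in 0 and fell in 10 of 110. The library kit marks strand, but the strand setting of the counting is not given in the sources used here, so reads of an antisense gene and its partner may be mixed.

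Few cell type markers passed the test, but of all genes only 5.89% passed (2.08% lower). Lists of 8 to 12 genes are too short to tell 0 calls from that share. Of the markers tested for dentate granule cells, CA1 cells, CA2 and CA3 cells, interneurons, astrocytes, microglia and neocortex, 0 passed. In bulk tissue, fewer cells of a type and less RNA per cell cannot be told apart. All 8 CA1 markers had log2 fold changes above 0, with a median of 0.138, which was 0.0169 in libraries over 2 CPM of Lcn2 and 0.133 in those under it. All 10 oligodendrocyte markers had log2 fold changes below 0 and 1 of them fell by the test, Opalin (-0.50 ± 0.14). The list median was -0.257, and it was -0.27 in libraries over 2 CPM of Lcn2, -0.255 in those under it and -0.275 without 32B; summed, the list was at 6409 to 9056 CPM in cue and 8678 to 10779 CPM in home cage libraries. Cue libraries 34A and 34B lay among the home cage values and the other 4 below all of them. Opalin lost its call on leaving out any 1 of 32A, 32B, 32C, 35C, 36B, 36C (adjusted p up to 0.0967), while 2 markers passed without 34A and 4 without 34B. Of 12 endothelial and mural markers, the endothelial transcription factor genes Sox18 (-0.59 ± 0.12) and Sox17 (-0.35 ± 0.11) fell and 0 rose (list median -0.0244); Sox17 lost its call without any 1 of 32A, 32B, 34A, 35A, 35C, 36A, 36B, 36C (adjusted p up to 0.111). Of 13 mitochondrially encoded genes mt-Nd1 (-0.32 ± 0.085) and mt-Nd5 (-0.31 ± 0.083) fell, and neither passed without 32B, 35A or 36B (adjusted p up to 0.0932 and 0.0987). Markers of thalamus and striatum summed to 104 to 209 CPM in cue and 131 to 180.4 CPM in home cage libraries, with 0 of 8 past the test.

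Chaperone and stress genes also differed between the groups, and here the values moved with Lcn2 and with library 32B. Of 14 endoplasmic reticulum chaperone genes, 8 rose and 0 fell, against 3.81% and 2.08% of all genes, with a median of 0.445. Hspa5 (ENSMUSG00000026864, chromosome 2, 34771970 to 34777547), the main chaperone of that compartment, was at 182 to 626 CPM (median 244) in cue libraries and 151 to 193 CPM (median 167) in home cage libraries. Library 32B, the highest in choroid plexus markers, stood at 626 CPM, above the other cue libraries by a wide margin, and without it the log2 fold change was 0.45 (adjusted p = 0.067), against 0.81 ± 0.20 with it (adjusted p = 0.0139). The same held for the list: 0 of the 14 passed without 32B, its median being 0.241, and between 0 and 13 passed over the 12 libraries left out in turn. The count moved by more than 1.5 times without 32A, 32B, 34B, 35C, 36A, 36B or 36C. In libraries over 2 CPM of Lcn2 the median was 0.508 and in those under it 0.0684, with 0 members past the threshold in either. The part of whatever sets Lcn2, and of choroid plexus tissue, in these values was not tested.

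The upstream sequence of Hspa5 (RefSeq, GRCm38, strand of the gene) is printed because it holds the stress element known for this group, ERSE (CCAAT and CCACG with any 9 bases between them, searched on both strands), which with 1 CRE core is in capitals.
Hspa5 (chr2:34771840-34772089, strand +): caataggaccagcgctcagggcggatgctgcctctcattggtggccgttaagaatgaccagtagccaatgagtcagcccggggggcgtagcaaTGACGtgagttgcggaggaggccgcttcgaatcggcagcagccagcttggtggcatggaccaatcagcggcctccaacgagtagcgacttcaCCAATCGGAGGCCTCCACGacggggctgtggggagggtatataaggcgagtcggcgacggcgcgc
An ERSE stood in 4 of the 6 genes of the list that rose and have an entry, against 0.943% of all genes that rose and 0.148% of all genes tested. Because the element is known for this group, a high share comes with the choice of the list and says nothing about the cue. Members of the list that did not rise were not counted.

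Of 18 cytosolic and mitochondrial heat shock genes, 7 rose and 0 fell, against 3.81% and 2.08% of all genes (median 0.228). Dnajb1, a co-chaperone that stress induces, was at 39.8 to 67.9 CPM (median 47.2) in cue libraries and 29.3 to 40.5 CPM (median 33.2) in home cage libraries (log2 fold change 0.55 ± 0.092 SE, adjusted p = 0.000203), and Dnaja1 at 165 to 213 CPM (median 175) in cue libraries and 149 to 161 CPM (median 153) in home cage libraries (log2 fold change 0.23 ± 0.046 SE, adjusted p = 0.00173); the groups overlapped for Dnajb1 by a narrow margin and not for Dnaja1. Chordc1 and Dnajb4, further co-chaperones, rose by 0.35 ± 0.070 and 0.23 ± 0.040. Hspb1 (0.82), Hspa8 (0.23) and Hsph1 (0.31) passed too, but each lost its call on leaving out single libraries. These were 32B, 34A, 34C, 35A, 35C, 36A, 36C for Hspb1, 32A, 32B, 34A, 34C, 35C, 36A, 36B, 36C for Hspa8 and 32B for Hsph1. Their adjusted p reached 0.237, 0.219 and 0.0593. Between 4 (without 32B) and 10 (without 34B) of the 18 passed over single libraries left out. Hspa1b, the classic inducible Hsp70 gene, was at 4.79 to 16.2 CPM (median 7.45) in cue libraries and 4.7 to 6.91 CPM (median 6.02) in home cage libraries and did not pass (adjusted p = 0.082), though it did without 32C or 34B (adjusted p down to 0.0222). Without 32B, where 3.31% of all genes passed (2.44% higher), 4 of the 18 rose, with a median of 0.128. The median was 0.229 in libraries over 2 CPM of Lcn2, with 4 past the threshold, and 0.0541 in those under it, with 0. Of all genes, 1.58% and 0.152% passed in these fits.

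**Figure D4:**
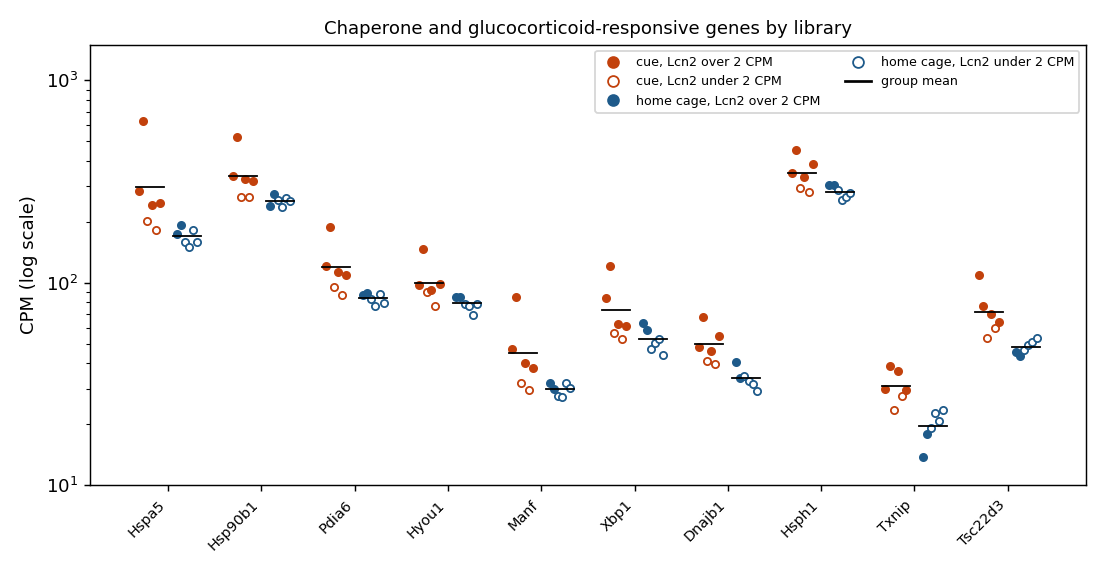
CPM, on a log scale, of 10 chaperone and glucocorticoid-responsive genes in the 6 cue (left) and 6 home cage (right) libraries, filled where Lcn2 exceeded 2 CPM, with a line at the group mean. Cue library 32B is the highest point for Hspa5 at 626 CPM, and the open cue points lie nearer to the home cage points than the filled cue points do for the 6 genes Hspa5 to Xbp1.

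Of 17 genes that glucocorticoids are known to induce, 7 rose and 0 fell, against 3.81% and 2.08% of all genes (median 0.258). Tsc22d3, which encodes the leucine zipper protein GILZ, was at 53.1 to 109 CPM (median 66.7) in cue libraries and 43.5 to 53.1 CPM (median 47.7) in home cage libraries (log2 fold change 0.58 ± 0.10 SE, adjusted p = 0.000312). Txnip, an inhibitor of thioredoxin, was at 23.4 to 38.9 CPM (median 29.8) in cue libraries and 13.8 to 23.4 CPM (median 19.9) in home cage libraries (log2 fold change 0.66 ± 0.12 SE, adjusted p = 0.000617). For both genes the lowest cue library lay a fraction below the highest home cage library. Pdk4, a kinase that restrains pyruvate use, rose by 0.42 ± 0.083; Ddit4, Per1 and Nfkbia, given above, belong to the list too. Fkbp5, a co-chaperone of the glucocorticoid receptor, was at 47.7 to 81.7 CPM (median 65.7) in cue libraries and 56.6 to 71.9 CPM (median 61) in home cage libraries and did not pass (log2 fold change 0.036 ± 0.088 SE, adjusted p = 0.858). Arrdc2 (0.29 ± 0.082) lost its call on leaving out any 1 of 32A, 34A, 34C, 35A, 35C, 36A, 36B (adjusted p up to 0.127). In libraries over 2 CPM of Lcn2 the median was 0.426 with 6 higher, and in those under it 0.0145 with 2 higher, Per1 (0.54) and Ddit4 (0.34). Of all genes, 1.19% and 0.147% were higher there. Txnip was at 1.09 and 0.25 in these fits, and Tsc22d3 at 0.85 and 0.18.

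Of 15 inflammatory genes tested, 3 rose, against 3.81% of all genes. Ch25h, cholesterol 25-hydroxylase, was at 0.217 to 4.53 CPM (median 1.83) in cue libraries and 0.138 to 0.872 CPM (median 0.337) in home cage libraries (log2 fold change 1.98 ± 0.49 SE, adjusted p = 0.0117). The adhesion molecule gene Vcam1 rose by 0.50 ± 0.14 and Tnfaip3, an inhibitor of NF-κB signalling, by 0.43 ± 0.13. Without 32B, 34A, 34C or 35C, 1 of the 3 passed. Ch25h was lost without 34A (adjusted p = 0.0544), Vcam1 without any 1 of 32B, 34C, 35A, 35B, 35C (adjusted p up to 0.13) and Tnfaip3 without any 1 of 32B, 34A, 34C, 35C, 36A, 36B, 36C (up to 0.119). Under 2 CPM of Lcn2, Ch25h was at -0.12. Of 16 gene models of targets of Atf4, the factor of the integrated stress response, the amino acid transporter gene Slc7a5 fell (-0.18 ± 0.053) and 0 rose; 0 passed without any 1 of 32B, 32C, 34A, 34B, 35A, 35C, 36A, 36C (adjusted p up to 0.149).

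**Figure D5:**
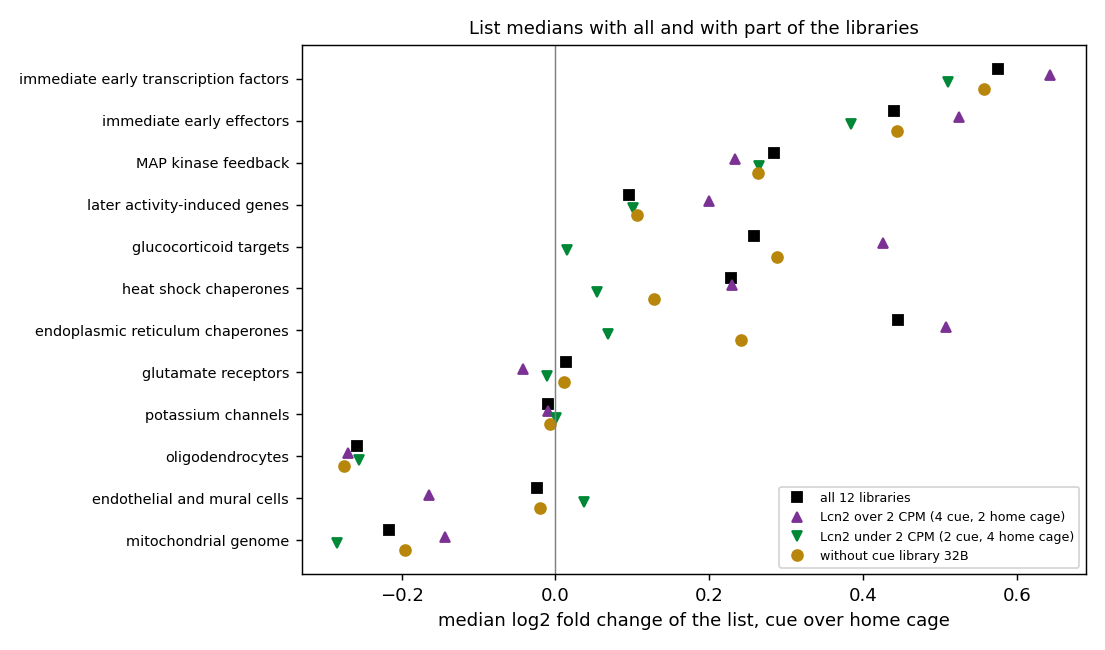
Median log2 fold change, cue over home cage, of 12 gene lists with all 12 libraries (square), the 6 libraries over 2 CPM of Lcn2 (triangle up), the 6 under it (triangle down) and all but cue library 32B (circle). The 2 immediate early lists stay at 0.383 or more in every fit, while the glucocorticoid list falls to 0.0145 and the endoplasmic reticulum list to 0.0684 under 2 CPM of Lcn2.

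The number of genes past the threshold depended on the libraries. Leaving out cue libraries 32A or 32B or home cage library 36B gave 695, 655 and 699 genes, and leaving out 34B gave 1477. Without the code numbers 32, 35 and 36, 194, 545 and 382 genes passed. The 6 libraries under 2 CPM of Lcn2, with those over it left out of the fit, gave 31 genes, 30 of them higher. All 31 were among the 1157, and 1153 of the 1157 had the same sign there. The 6 libraries over it, in a fit that kept all 36 DH libraries, gave 325 genes, 263 of them among the 1157. In a fit of the 12 libraries alone 515 genes passed. That fit took the spread from these 12 and not from all 36 DH libraries. None of the other DH libraries exceeded 2 CPM of Lcn2. With the log2 CPM of Lcn2 as a covariate in the fit of the 12 libraries, 197 genes passed (1.06%), of which 187 were among the 1145 of the 1157 tested.

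The cue response labelled 6J was set against the responses of the other groups, and no gene passed edgeR's test of any of the 3 differences with the low-count filter. For the strain labels (the difference being the response labelled 6J minus response labelled 6NJ, both in DH), 0 of 19647 genes passed in edgeR and 0 in DESeq2, with 621 at an unadjusted p under 0.05 (3.16%). Egr2 differed by 0.13 (95% interval -0.52 to 0.79), Fos by 0.25 (95% interval -0.43 to 0.93) and Arc by 0.25 (95% interval -0.086 to 0.60) on the log2 scale. The smallest p belonged to 3110070M22Rik, at -1.01 labelled 6J and 0.027 ± 0.15 labelled 6NJ (unadjusted p = 4.11e-05, adjusted p = 0.807). Tnni1 differed by -0.52 (95% interval -0.81 to -0.24) and Dusp6 by 0.31 (95% interval 0.070 to 0.56), neither past the threshold after adjustment.

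Between regions (response in DH minus response in VH, both labelled 6J), 0 of 20255 genes passed in edgeR and 0 in DESeq2, with 783 at an unadjusted p under 0.05 (3.87%). The cue response of Nr4a1 was 1.23 ± 0.093 in DH and 0.78 ± 0.067 in VH, a difference of 0.46 (95% interval 0.23 to 0.69) (adjusted p = 0.963). Egr1 differed by 0.34 (95% interval 0.050 to 0.64) and Npas4 by 0.40 (95% interval -0.010 to 0.82). For Fos the difference was 0.092 (95% interval -0.49 to 0.68), for Arc 0.23 (95% interval -0.057 to 0.52) and for Cirbp 0.025 (95% interval -0.27 to 0.32).

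Set against fear conditioning (cue minus shock-cue, both in DH labelled 6J), 0 of 19647 genes passed in edgeR, and 1896 had an unadjusted p under 0.05 (9.65%). Arc averaged 380.4 ± 38.1 CPM after the cue and 353 ± 54.6 CPM after shock and cue (SD, n = 6 each), a log2 difference of 0.11 (95% interval -0.13 to 0.35). Fos averaged 31.3 ± 6.42 and 32.3 ± 6.17 CPM, a difference of -0.043 (95% interval -0.48 to 0.39). For 1700016P03Rik the difference was -0.23 (95% interval -0.53 to 0.076) and for Sgk1 0.31 (95% interval 0.099 to 0.52), neither past the threshold over all genes. DESeq2 called 2 genes, Lcn2 and Ch25h, and edgeR with no low-count filter called 1, Serpina3f, all higher after the cue. Lcn2 was at 0.108 to 20.5 CPM after the cue and 0 to 0.107 CPM after shock and cue, so that no shock-cue library exceeded 2 CPM.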

How the data were processed

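Male mouse dorsal hippocampus was sequenced as 75-base single-end stranded mRNA libraries, per the labels' protocols. The deposited gene table holds whole-number counts that the authors made with HISAT2 and featureCounts on GRCm38, and the deposited transcript table holds estimated counts that the authors made with kallisto, per the submitters' processing notes; which tool made which table follows from their values and columns. The sources used here do not give versions, annotation release or strand setting. Estimated counts were rounded. Gene counts were fitted with edgeR 4.0.16 in R 4.3.3: TMM scaling, genes filtered by filterByExpr over groups, robust quasi-likelihood test, Benjamini-Hochberg adjusted p under 0.05, all 36 DH libraries in 1 fit (72 for the region difference), and CPM as counts over TMM-scaled totals. Every adjusted p in the text is from this test unless DESeq2 (1.42.0) is named. Fold changes are cue over home cage; SE is the log2 fold change over the root of F. Alternatives used limma 3.58.1, DESeq2, other filters and fewer libraries; the fit within libraries over 2 CPM of Lcn2 was added after seeing the data. The genes named are the 20 higher and 15 lower with the smallest p, and members of 30 gene lists; the members and lists were chosen with earlier results of these data known. Upstream windows came from RefSeq, which matched 12850 of the genes tested by symbol. Library totals lay between 32012867 and 37906707 counts, and the number of reads limits the precision of genes near or under 1 CPM. No pair of libraries within a group agreed within sampling noise (lowest chi-square per degree of freedom 4.55 over 30 pairs, genes with summed counts of at least 20).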

Additional observations from a re-analysis of the deposited data

Results flagged for a closer look

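Single libraries stood far from the other 5 of their group in 27 of 236 gene and group pairs checked with Dixon's ratio, where chance gives about 1 in 20. Cue library 32B was the outlier in 10 pairs. It held Ttr at 8282 CPM (the others 23.6 to 2028) and the endoplasmic reticulum chaperone genes Hspa5 at 626 (others 182 to 285), Hsp90b1 at 522 (others 264 to 337), Pdia4 at 96.5 (others 31.9 to 42.7), Pdia6 at 189 (others 86.7 to 121) and Herpud1 at 59 CPM (others 33.4 to 37.6). Hyou1 at 146, Manf at 84.7, Creld2 at 30.6 and Hspa8 at 941 CPM were also highest there. The part of choroid plexus tissue in these values was not tested.

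Cue library 34A was the outlier in 5 pairs, all of them high. Fos was at 43.7 CPM (others 26.6 to 32.1), Egr2 at 14.3 (others 8.88 to 10.9), Dusp1 at 28.4 (others 15.1 to 18.8), Nfkbia at 33.6 (others 21.6 to 25.2) and 1700016P03Rik at 8.81 CPM (others 5.36 to 6.42). In cue library 34C Icam1 reached 11 CPM (others 1.71 to 4.46). Cue library 32A was low in Jun at 58.4, 32C low in Coq10b at 16.6 and 34B high in Rbm3 at 43.9 CPM.

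Among home cage libraries, 36C was high in Sgk1 at 76.5 and Tiparp at 21.3 CPM and low in Tfrc at 139 CPM. Library 35A was high in Gpr3 at 5.21 and Nab2 at 39.6, 36A high in Atf3 at 0.968, 35B low in C230035I16Rik at 0.711 and 36B high in Ttr at 3342 CPM (others 22.3 to 1154).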

How the results depend on the processing

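The count of 1157 genes changed after the cue was 734 with no low-count filter, 515 with the 12 libraries alone, 194, 545 and 382 without code number 32, 35 or 36, 31 without libraries over 2 CPM of Lcn2, 325 within them and 197 with Lcn2 as a covariate; leaving out 1 library gave 655 (32B) to 1477 (34B). The cause of these shifts was not tested. Fewer libraries entered these fits, except those with no low-count filter and within libraries over 2 CPM of Lcn2. The latter kept all 36 DH libraries and compared 4 cue with 2 home cage libraries. Of 1157 genes 1153 kept their sign under 2 CPM of Lcn2, 1157 over it and 1157 without 32B. RLE scaling, a mean CPM of at least 1, DESeq2 and limma-voom, where code number entered as random effect, gave 1167, 1192, 1436 and 1329 genes. The correlation within code numbers in the limma-voom fit was -0.0357, and that fit cannot tell code number from condition either. Transcript calls were 613, 1349 in DESeq2 and 75 with the 12 libraries alone. For cue minus shock-cue the count of 0 became 1 with no filter (Serpina3f) and 2 in DESeq2. Signs turned for Lcn2 (-0.16 under 2 CPM and -0.040 with the covariate), Rbm3 (0.13 without code number 36, 0.041 with the covariate, 0.10 over 2 CPM, -0.12 to 0.025 over single libraries left out) and Jun (-0.0074 and -0.041 without code number 34 or 35, -0.060 under 2 CPM, -0.0061 to 0.10 over single libraries). They also turned for Fkbp5 (-0.032 and -0.065 without code number 32 or 36, -0.20 under 2 CPM, -0.11 with the covariate, -0.041 to 0.11 over single libraries), Ttr (-0.34 under 2 CPM, -0.0040 to 2.36 over single libraries) and, under 2 CPM, Hspb1 (-0.045), Icam1 (-0.16), Hspa1b (-0.19) and Ch25h (-0.12). No paired analysis was possible for cue against home cage because the groups share no code. DH and VH libraries share codes; with the code as replicate block the region difference stayed at 0 genes, and the deviations of same-code libraries correlated above 0.1 in 16 of 36 codes (median 0.0945). Of 118 named genes, 113 kept their direction and side of the threshold in DESeq2, 88 with the 12 libraries alone, 70 within libraries over 2 CPM of Lcn2, 68 with the covariate and 32 under 2 CPM. Depth limits genes below about 1 CPM.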
